A study of Homo sapiens with 8 samples.

Results

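The 46 genes described here encode factors that start, elongate and end protein synthesis on cytosolic ribosomes. They were taken as a list of gene symbols, and all 46 were found among the 20037 protein-coding genes of RefSeq on GRCh38 (hg38 in the peak lists). A gene's window was its annotated span plus 2 kb either side. The libraries came from HCT-116, a human colorectal carcinoma line, and were made by CUT&RUN, in which antibody-guided nuclease cuts out the DNA around a protein in intact nuclei or cells and the cut fragments are sequenced. BRG1, the ATPase of SWI/SNF remodellers encoded by SMARCA4, was profiled in SETD3 KO cells (KO1 and KO2) and in SETD3 control cells (1 library). Flag-tagged wild type actin was profiled in the same design, with 2 KO libraries and 1 control library. A single IgG library from control cells accompanied each antibody and marked unspecific background. The IgG library of the Flag arm is titled Flag Empty IgG Control cells, and that of the BRG1 arm IgG Control cells. SETD3 is the enzyme that methylates a histidine of actin. The promoter of the Flag-actin construct and the clonal origin of KO1 and KO2 are not stated in the sources used here.

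Initiation begins when eIF2, loaded with GTP and the initiator tRNA, joins the small ribosomal subunit together with eIF1, eIF1A, eIF3 and eIF5. The eIF4 factors bind the mRNA cap, unwind the leader and, through poly(A)-binding protein, join the ends of the message, and eIF5B then brings in the large subunit. The guanine exchange factor eIF2B recharges eIF2 and is the point at which stress kinases slow translation. In elongation eEF1A delivers aminoacyl-tRNA, the eEF1B subunits recharge it and eEF2 moves the ribosome along. Many of these mRNAs carry a run of pyrimidines at their very start (5′ TOP mRNAs), through which mTORC1 and LARP1 control their translation. Actin and actin-related proteins are subunits of SWI/SNF complexes.

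The lists held between 23784 and 53270 peaks of the antibody libraries on chromosomes 1 to 22, X and Y. A peak was called free of IgG when it overlapped no peak of either IgG list by 1 bp or more. Such peaks numbered 6792 in BRG1 KO1, 12795 in BRG1 KO2 and 33618 in the BRG1 control, and 12124, 18481 and 25473 in Flag-actin KO1, KO2 and control. The lowest total signal of a list was 6228 in BRG1 KO1, 5182 in BRG1 KO2 and 4164 in the BRG1 control, and 4650 and 5879 in Flag-actin KO1 and KO2 against 25771 in the Flag-actin control, whose signal scale stood apart. A peak's rank is given as a percentile, the share of its own list with a total signal at or below it. Peaks over IgG stay in that ranking. They made up 71.4% of the BRG1 KO1 list, 60.1% of BRG1 KO2 and 36.9% of the BRG1 control. For Flag-actin KO1, KO2 and control the shares were 55.5%, 48.5% and 34.5%. Percentiles in KO and control lists are therefore not directly comparable. No test was run between KO and control, since with 2 KO libraries and 1 control library per antibody only the KO pair gives a spread. The counts below describe these libraries, and the control has no replicate check. Ranks go by total signal, and peaks are those free of IgG unless stated otherwise. Peaks report recovered DNA and measure no expression, and they give no check of the SETD3 deletion.

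At least 1 BRG1 peak free of IgG lay in the window of 8 of the 46 genes in KO1, 18 in KO2 and 24 in the control. The KO mean of 13.0 ± 7.07 genes (SD, n = 2) was 11 below the control, a difference larger than the spread between the KO libraries. Over all 20037 protein-coding genes such a peak was found at 15.7% in KO1, 28.3% in KO2 and 52.4% in the control, so the share of translation factor genes was close to that of all genes in the control and in KO1 and stood at 39.1% in KO2. At 10 of the 46 genes (21.7%) the control held a peak and neither KO list did, against 25.1% of all genes. These were EIF2B2, EIF2B3, EIF3C, EIF3D, EIF3K, EIF4E, EIF4EBP1, EEF2K, EIF1 and EIF5. Control and both KO lists held a peak at 2 genes (9.15% of all genes), control and 1 KO list at 12 (18.2%), and no BRG1 list at 14 (40.8%). The number with a control peak and no KO peak was 13 without KO1 and 19 without KO2, and 5 when control peaks below the lowest total signal of both KO lists were left out, where the KO mean lay 2 below the control. With peaks over IgG counted as well, 14 genes in KO1, 25 in KO2 and 28 in the control had a BRG1 peak, against 34.9%, 44.6% and 61.9% of all genes. Of these, 7 had a control peak and no KO peak, against 18.5% of all genes.

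**Figure D1:**
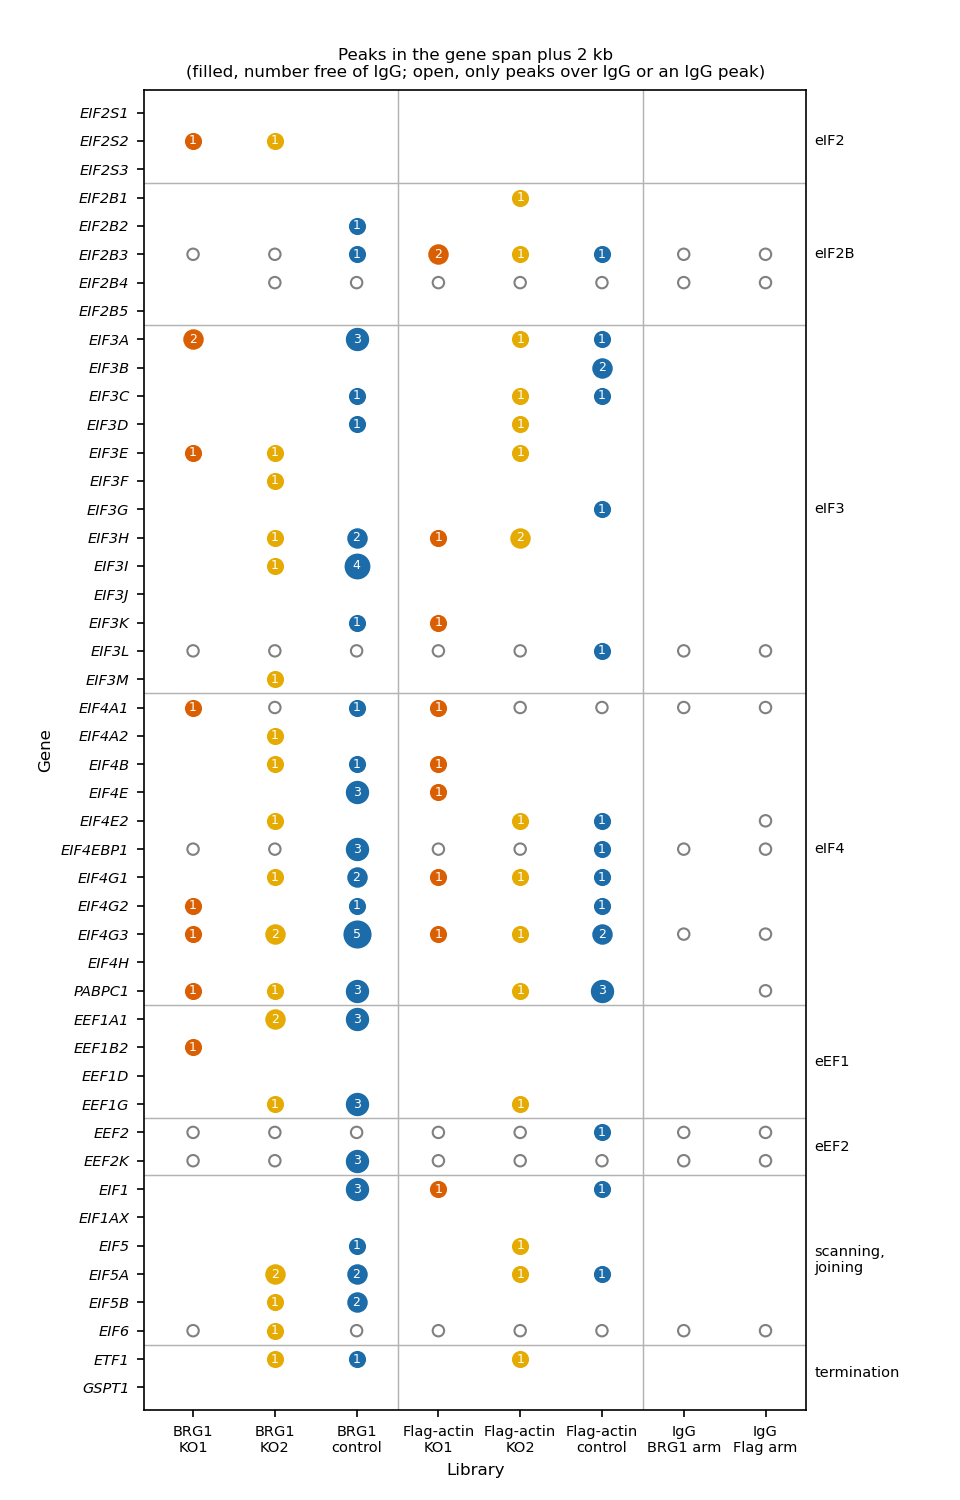
Number of peaks in each gene's span plus 2 kb (rows, grouped by factor) in each of the 8 libraries (columns). Filled circles give the number of peaks free of IgG, and open circles mark windows in which a list held only peaks that overlap IgG, or an IgG peak. Filled circles stand at 8 genes in BRG1 KO1, 18 in BRG1 KO2 and 24 in the BRG1 control.

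A part of the BRG1 peaks lay near transcription starts. An annotated start was known for 37 of the 46 genes. A peak free of IgG lay within 500 bp of the start at 1 of 37 genes in KO1, 6 in KO2 and 16 in the control, against 3.33%, 10.2% and 27.0% of 15843 genes with a start. The 16 were EIF2B2, EIF2B3, EIF3D, EIF3I, EIF3K, EIF4A1, EIF4B, EIF4E, EEF1A1, EEF1G, EEF2K, EIF1, EIF5, EIF5A, EIF5B and ETF1. They held 19 control peaks with a median width of 270 bp, of which 16 had their centre upstream of the start, 8 covered the start base and 2 lay wholly downstream. Of all BRG1 peaks in the windows of the 37 genes, 1 of 4 in KO1, 7 of 17 in KO2 (41.2%) and 19 of 40 in the control (47.5%) lay within 500 bp of the start, against 15.6%, 23.8% and 24.9% in the windows of all genes with a start. The other 21 control peaks lay farther away. At 12 of the 37 genes (32.4%) the control held a start peak and neither KO list did, against 18.5% of all genes with a start. Of genes with a control start peak, that was 12 of the 16, against 2930 of 4276 (68.5%) over all genes, a like share. None of these comparisons with all genes was tested. Gene length, which sets the window outside the start, was not allowed for. Its median was 19963 bp for the 46 genes and 24115 bp for all 20037.

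**Figure D2:**
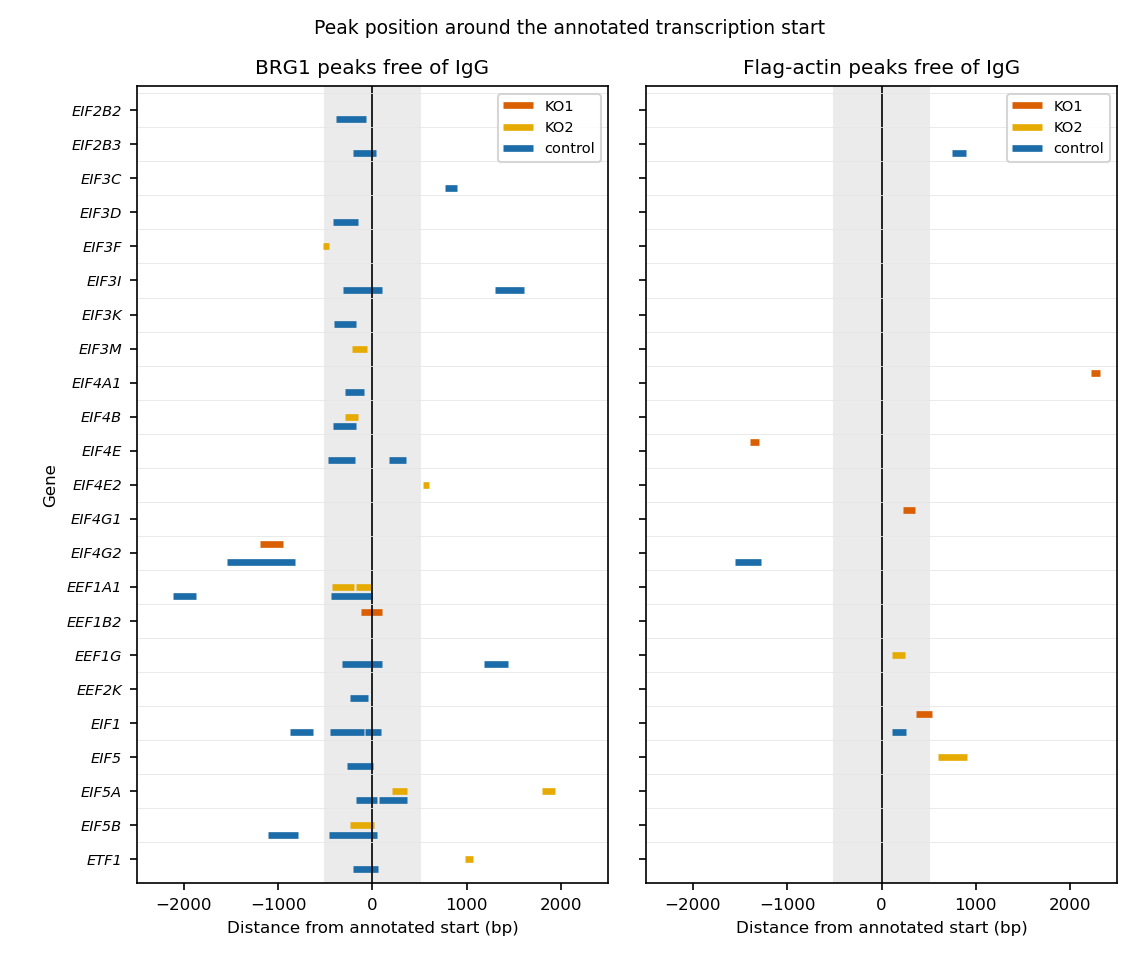
Position of peaks free of IgG around the annotated start (0 on the horizontal axis, bp, positive downstream) for genes with a known start and a peak in the plotted range, in BRG1 (left) and Flag-actin (right) lists. Bars are peaks, stacked as KO1, KO2 and control within a gene, and the grey band spans 500 bp either side. In the band, peaks lie at 1 gene in BRG1 KO1, 6 in BRG1 KO2 and 16 in the BRG1 control, and at 2 genes in Flag-actin KO1, 1 in Flag-actin KO2 and 1 in the Flag-actin control.

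The stretches under the highest-ranked of these control peaks are shown, since they are the DNA from which BRG1 signal was recovered with SETD3 present. Each line gives the 250 bases before the annotated start, 5′ to 3′ on the strand of the gene, from RefSeq sequence of GRCh38.p14, and capitals mark bases inside a BRG1 control peak.
EEF1G: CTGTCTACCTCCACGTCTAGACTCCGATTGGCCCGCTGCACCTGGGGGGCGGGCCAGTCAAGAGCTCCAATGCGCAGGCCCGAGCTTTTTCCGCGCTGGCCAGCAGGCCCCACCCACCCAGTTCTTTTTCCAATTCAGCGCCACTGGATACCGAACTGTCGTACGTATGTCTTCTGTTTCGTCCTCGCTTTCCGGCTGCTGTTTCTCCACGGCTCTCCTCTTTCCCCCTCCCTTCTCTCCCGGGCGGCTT
EIF5B: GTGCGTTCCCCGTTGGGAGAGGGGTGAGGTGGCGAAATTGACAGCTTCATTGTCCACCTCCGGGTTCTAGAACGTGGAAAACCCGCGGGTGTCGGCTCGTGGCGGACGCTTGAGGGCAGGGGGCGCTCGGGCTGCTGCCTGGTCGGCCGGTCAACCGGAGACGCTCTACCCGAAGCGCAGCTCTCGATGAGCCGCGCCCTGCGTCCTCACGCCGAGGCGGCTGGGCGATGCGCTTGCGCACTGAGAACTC
EEF1A1: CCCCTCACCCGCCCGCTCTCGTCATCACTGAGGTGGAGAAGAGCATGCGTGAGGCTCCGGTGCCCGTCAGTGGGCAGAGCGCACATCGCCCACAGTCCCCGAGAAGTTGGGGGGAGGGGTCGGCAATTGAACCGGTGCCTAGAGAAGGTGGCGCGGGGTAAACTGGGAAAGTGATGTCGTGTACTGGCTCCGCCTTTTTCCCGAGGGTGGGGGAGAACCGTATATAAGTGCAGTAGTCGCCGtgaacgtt
EIF1: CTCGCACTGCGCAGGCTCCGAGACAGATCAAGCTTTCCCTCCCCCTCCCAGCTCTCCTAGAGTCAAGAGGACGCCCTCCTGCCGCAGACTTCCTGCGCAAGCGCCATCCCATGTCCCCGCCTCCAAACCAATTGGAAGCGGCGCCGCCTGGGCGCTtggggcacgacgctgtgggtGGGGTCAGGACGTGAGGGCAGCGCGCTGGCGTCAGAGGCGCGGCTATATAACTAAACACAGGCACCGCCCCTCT
ETF1: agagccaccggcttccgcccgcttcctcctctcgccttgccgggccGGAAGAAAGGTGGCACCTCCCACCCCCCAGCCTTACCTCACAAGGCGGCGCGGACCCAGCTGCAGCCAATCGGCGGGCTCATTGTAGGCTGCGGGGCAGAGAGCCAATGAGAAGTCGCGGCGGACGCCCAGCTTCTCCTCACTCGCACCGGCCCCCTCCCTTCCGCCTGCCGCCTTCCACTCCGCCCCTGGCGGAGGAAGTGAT
EIF3D: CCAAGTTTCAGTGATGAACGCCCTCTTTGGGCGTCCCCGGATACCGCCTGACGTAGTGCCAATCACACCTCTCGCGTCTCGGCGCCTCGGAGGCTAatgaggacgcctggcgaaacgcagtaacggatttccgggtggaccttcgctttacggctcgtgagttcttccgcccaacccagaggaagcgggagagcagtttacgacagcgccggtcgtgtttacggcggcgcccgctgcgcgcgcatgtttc
These stretches lie at chr11:62573892-62574141 (EEF1G, minus strand), chr2:99337139-99337388 (EIF5B, plus strand), chr6:73521033-73521282 (EEF1A1, minus strand), chr17:41688635-41688884 (EIF1, plus strand), chr5:138543237-138543486 (ETF1, minus strand) and chr22:36529167-36529416 (EIF3D, minus strand). The control peaks covered all 250 bases at EEF1G and EIF5B, 242 at EEF1A1, 230 at EIF1, 204 at ETF1 and 96 at EIF3D. Between 61.2% and 69.2% of the bases in these 6 stretches were G or C, and the median over the 300-base promoter windows (250 bases before to 50 after the start) was 63.3% for the 37 genes and 62.7% for all.

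Both strands of the 300-base windows were searched for 7 short motifs. CCAAT, the NF-Y box, was present at 11 of the 16 genes with a BRG1 control peak at the start and at 3 of the other 21, and in 36.4% of 15843 promoters. Among all genes it was present in 43.2% of promoters with such a peak and 33.8% of those without. GGGCGG, the GC box of SP1 factors, was present at 14 of the 16 and 12 of the 21, against 76.2% of all promoters with such a peak and 51.9% of those without (58.5% of all). The ETS motif CCGGAAG occurred at 3 of 16 and 5 of 21, against 20.5% and 11.9% of all promoters with and without such a peak (14.2% of all). The E-box CACGTG, which MYC and its partners bind, occurred at 5 of 16 and 3 of 21, against 9.94% and 8.49% (8.88%). TGANTCA, the AP-1 motif, was found at 0 of 16 and 2 of 21, against 4.23% and 6.31% (5.75%). The CRE TGACGTCA was found at 0 and 1, against 3.16% and 2.39% (2.59%), and TATAAA at 0 and 3, against 4.86% and 11.4% (9.63%). A C followed by at least 4 pyrimidines, within 2 bases of the annotated start, as in a 5′ TOP mRNA, was found at 12 of the 37 genes and in 11.1% of all promoters. Of those 12 genes, EEF1A1, EIF4B, EIF3K and EIF3D had a BRG1 control peak at the start, or 4 of 16 and 8 of 21, against 12.4% and 10.7% of all promoters with and without such a peak. These matches are letters in the windows, and no comparison of them was tested.

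The eIF2 subunit genes, which encode the GTPase that carries the initiator tRNA, held no BRG1 peak in control cells. EIF2S2, the beta subunit, had 1 peak in each KO list, at the 4.43 percentile in KO1 and 8.62 in KO2, and 0 in the control. They lay at different places of chromosome 20, from 34098821 to 34098910 in KO1 and, across a gene end, from 34112211 to 34112300 in KO2. EIF2S1 and EIF2S3 (alpha and gamma) held no peak in any of the 8 lists.

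Of the 5 genes of eIF2B, 0 in KO1, 0 in KO2 and 2 in the control had a BRG1 peak free of IgG. EIF2B2, the beta subunit, held 1 control peak at the 58.1 percentile, from 390 to 71 bp before the start on chromosome 14 (75002531 to 75002850). EIF2B3, the gamma subunit, held 1 control peak at the 49.7 percentile that covered the start, from 205 bp before to 34 bp after it. Its remaining BRG1 peaks, in KO1, KO2 and control, overlapped IgG. EIF2B5, the catalytic epsilon subunit, had no peak in any list, and EIF2B4 only one upstream of its start, in SNX17, that both IgG lists held too.

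The 13 genes of eIF3, the large scaffold that holds the initiation complex on the small subunit, had BRG1 peaks free of IgG at 2 genes in KO1, 5 in KO2 and 6 in the control. EIF3A, the largest subunit, held 2 peaks in KO1, 0 in KO2 and 3 in the control, with best percentiles of 20.7 in KO1 and 72.3 in the control. Ranked among peaks free of IgG alone, these stood at 52.9 and 89.2. The KO1 peaks did not overlap the control peaks, the best of which, from 119080661 to 119081050 on chromosome 10, crossed the edge of the annotated gene. EIF3D, which can itself bind the cap of some mRNAs, held 0 and 0 peaks in KO1 and KO2 and 1 in the control, at the 70.4 percentile and from 424 to 155 bp before its start. EIF3I held 0, 1 and 4, and the KO2 peak, 40 bp wide, overlapped the narrowest of the control peaks. The control peak over the EIF3I start also lay in TMEM234, a neighbouring gene. EIF3H held 0 peaks in KO1, 1 in KO2 and 2 in the control, with percentiles of 8.62 in KO2 and 30.6 in the control, and the KO2 peak overlapped a control peak at an annotated gene end that also lay in UTP23.

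Several eIF3 genes had BRG1 peaks in KO cells and none in the control, a pattern whose share of all genes was not taken. EIF3E held 1 in KO1 (15.0 percentile, 30 bp wide), 1 in KO2 (21.0 percentile, at an annotated end of the gene) and 0 in the control, and the KO peaks did not overlap. EIF3F and EIF3M, which encode subunits of the octameric core, each had 1 peak in KO2 only. The KO2 peak of EIF3M ran from 220 to 61 bp before its start at the 41.9 percentile, and that of EIF3F from 526 to 457 bp before its start at the 49.9 percentile. EIF2S2 and EIF3E were the 2 of 46 genes that had BRG1 peaks in KO1 and KO2 without one in the control, against 0.744% of all genes. Under equal-length lists, peaks of at least 100 bp or windows at the gene ends, 0 genes had that pattern. EIF3C has a near-identical copy, EIF3CL, so its single control peak, at the 7.79 percentile, is uncertain. EEF1A1 and EIF4A1 have processed pseudogenes elsewhere in the genome, and how reads that match several places were treated is not stated in the sources used here. EIF3J held no peak in any list.

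By gene window, the eIF4 genes, for cap binding and scanning, with poly(A)-binding protein, were the most covered. BRG1 peaks free of IgG lay at 4 of 11 genes in KO1, 6 in KO2 and 8 in the control. The shares of all genes were 15.7%, 28.3% and 52.4%. Scanning and subunit joining came next in the control, with 4 of 6 genes, so the margin was small. Longer genes have wider windows, and gene length was not allowed for. Within 500 bp of a start the eIF4 genes did not lead, with a control peak at 3 of 9. There, the scanning and subunit joining group, which includes EIF5A, had 4 of 6, eEF1 2 of 3, eIF2B 2 of 5, eIF3 3 of 8 and eIF2 0 of 2. This order depends on the starts used. No start was used for PABPC1, EIF4EBP1, EIF3A and EIF3H, and that of EIF4G2 lay inside its span. Each of these genes had a control peak at or near a gene end that the start counts leave out. PABPC1, which binds the poly(A) tail, had the highest-ranked BRG1 control peak among those free of IgG by total signal. By maximum signal that place went to EIF3I (63.2 percentile), ahead of PABPC1 (58.7). PABPC1 held 1 peak in KO1, 1 in KO2 and 3 in the control, at best percentiles of 5.68, 20.2 and 83.9. The control peak lay on chromosome 8, from 100722311 to 100722840, just outside the annotated gene, and the KO1 peak (100722311 to 100722430) and the KO2 peak (100722451 to 100722590) lay inside it without touching each other. EIF4G3, a scaffold paralogue with the longest of these genes, held 1, 2 and 5 peaks at best percentiles of 21.3, 39.3 and 77.3. The highest-ranked control peak, from 21149831 to 21150280 on chromosome 1, was overlapped by a KO1 and a KO2 peak, and it lay inside the gene.

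EIF4G2, the eIF4G homologue also called DAP5, held 1 peak in KO1, 0 in KO2 and 1 in the control, at the 27.6 percentile in KO1 and the 81.2 percentile in the control, and the KO1 peak lay inside the control peak. The control peak was the widest at any of the 46 genes, 720 bp, on chromosome 11 from 10808821 to 10809540. It covered the upstream end of the gene span at 10808926. The annotated start used here lay inside that span. The peak thus stood 1544 to 825 bp before this start and was not counted among the start peaks. EIF4B, the cofactor of the eIF4A helicase, held 0, 1 and 1, and its KO2 peak overlapped the control peak upstream of the start, at the 12.7 percentile in KO2 and 60.8 in the control. EIF4E, the cap-binding protein, held 0 peaks in KO1, 0 in KO2 and 3 in the control, the best from 467 to 188 bp before its start at the 48.7 percentile. EIF4EBP1, the repressor of EIF4E that mTORC1 inactivates, likewise held 0, 0 and 3 peaks free of IgG, with the best at the 58.7 percentile. EIF4G1, the main scaffold, held 0, 1 and 2, and its KO2 peak lay in the neighbouring gene FAM131A, away from the control peaks. EIF4A1, the helicase, held 1, 0 and 1, with the KO1 peak in the neighbouring gene CD68 and the control peak just upstream of the start. EIF4A2 and EIF4E2 had 1 peak each in KO2 only, and EIF4H had none in any list.

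In the group listed as scanning and subunit joining, 0 of 6 genes in KO1, 3 in KO2 and 4 in the control had a BRG1 peak free of IgG. The group also took in EIF5A, not itself a scanning or joining factor, and EIF6. EIF5B, the GTPase for subunit joining, held 0, 1 and 2 peaks in KO1, KO2 and control, with best percentiles of 29.2 in KO2 and 74.6 in the control. Its KO2 peak ran from 238 bp before the start to 21 bp after it and lay inside the control peak, which ran from 458 bp before to 51 bp after. EIF1, which guards start codon choice, held 0 peaks in KO1, 0 in KO2 and 3 in the control, all within 874 bp upstream of or across its start and the best at the 73.3 percentile. EIF5A, the hypusinated factor, held 0, 2 and 2, and 1 of the KO2 peaks overlapped a control peak from 72 to 361 bp after the start. EIF5 held 0, 0 and 1. EIF6 held 0, 1 and 0, and its KO2 peak lay outside the gene, in MMP24-AS1-EDEM2 and MMP24OS. EIF1AX held no peak in any list.

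Among the eEF1 genes, 1 of 4 in KO1, 2 in KO2 and 2 in the control had a BRG1 peak free of IgG. EEF1A1, which delivers tRNA to the ribosome, held 0 peaks in KO1, 2 in KO2 and 3 in the control. Both KO2 peaks, from 428 to 199 and from 178 to 19 bp before the start, lay inside the control peak from 438 to 9 bp before it, at best percentiles of 25.0 in KO2 and 73.3 in the control. EEF1G, a subunit of the exchange factor for eEF1A, held 0, 1 and 3. Its highest-ranked control peak, at the 79.8 percentile, ran from 319 bp before the start to 100 bp after it and had no KO counterpart, while the KO2 peak overlapped a control peak inside the gene on chromosome 11, from 62560631 to 62560950. EEF1B2, another subunit of the same factor, held 1 peak in KO1, over its start at the 49.8 percentile, and 0 in KO2 and in the control. Ranked among KO1 peaks free of IgG alone, that peak stood at the 91.6 percentile. EEF1D held no peak in any list.

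EEF2K, the kinase that inhibits eEF2, held 0 peaks free of IgG in KO1, 0 in KO2 and 3 in the control, the best of them from 237 to 48 bp before its start at the 56.1 percentile. EEF2 itself held a BRG1 peak in every list, but it overlapped IgG. ETF1, the release factor that reads stop codons, held 0, 1 and 1, with the control peak over its start at the 72.4 percentile and the KO2 peak, 80 bp wide, about 1 kb into the gene. GSPT1, its GTPase partner, held no peak in any list.

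Matched peak by peak, the 46 windows held 9 BRG1 peaks free of IgG in KO1, 21 in KO2 and 51 in the control, with median widths of 110, 160 and 270 bp. Of the KO peaks, 3 of 9 in KO1 and 11 of 21 in KO2 overlapped a control peak, against 39.8% and 41.3% in the windows of all genes. Of the 51 control peaks, 3 overlapped a KO1 peak, 10 a KO2 peak and 2 both, against 7.10%, 14.4% and 3.83% in the windows of all genes. Where the control peak was strong the share was higher. Among control peaks with a total signal of at least 2 times the lowest of the KO list, 3 of 4 overlapped a KO1 peak and 5 of 8 a KO2 peak, against 37.1% and 49.5% in the windows of all genes. The exceptions were EEF1G for KO1, and EEF1G, EIF4G2 and EIF1 for KO2. Of the 19 control peaks at the starts, 9 reached the lowest total signal of the KO1 list and 0 of these overlapped a KO1 peak, against 10.6% of 2285 such start peaks over all genes. The lowest total signal of the KO2 list was reached by 15, of which 4 (26.7%) overlapped a KO2 peak, against 26.2% of 3153 over all genes. The sources used here do not say how signal was scaled between libraries, so this comparison assumes like scales. The 19 start peaks leave out control peaks at or beside a gene end of PABPC1 (no start used) and EIF4G2 (start inside its span). A KO1 peak overlapped each of these left-out peaks.

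**Figure D3:**
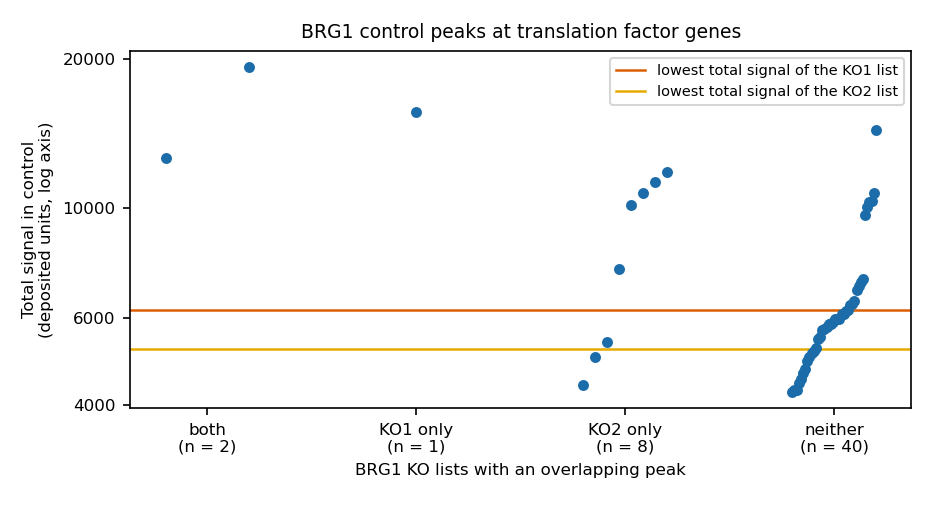
Total signal (log axis, deposited units) of the 51 BRG1 control peaks free of IgG at the 46 genes, split by which KO lists hold an overlapping peak, with lines at the lowest total signal of the KO1 and KO2 lists. The 2 peaks found in both KO lists lie at 12623 and 19241, and the 40 peaks found in neither lie between 4251 and 14376 with a median of 5917.

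Flag-actin peaks free of IgG lay in the windows of 9 of the 46 genes in KO1, 15 in KO2 and 15 in the control, against 23.8%, 33.4% and 38.9% of all genes. The KO mean was 12.0 ± 4.24 genes (SD, n = 2), and its difference of 3 from the control was smaller than the spread between the KO libraries. With lists cut to equal length before peaks over IgG were removed, the direction turned, with 9 genes in KO1, 7 in KO2 and 7 in the control. At 6 genes the control held a peak and neither KO list did (13.8% of all genes): EIF3B, EIF3G, EIF3L, EIF4EBP1, EIF4G2 and EEF2. That number was 7 without KO1 and 11 without KO2. Control and both KO lists held a peak at 3 genes (10.1%), control and 1 KO list at 6 (15.0%), and no Flag-actin list at 20 (42.5%). With peaks over IgG counted, 15 genes in KO1, 22 in KO2 and 19 in the control had a peak (39.0%, 47.4% and 50.3% of all genes), and 3 had a control peak and no KO peak (10.7%).

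**Figure D4:**
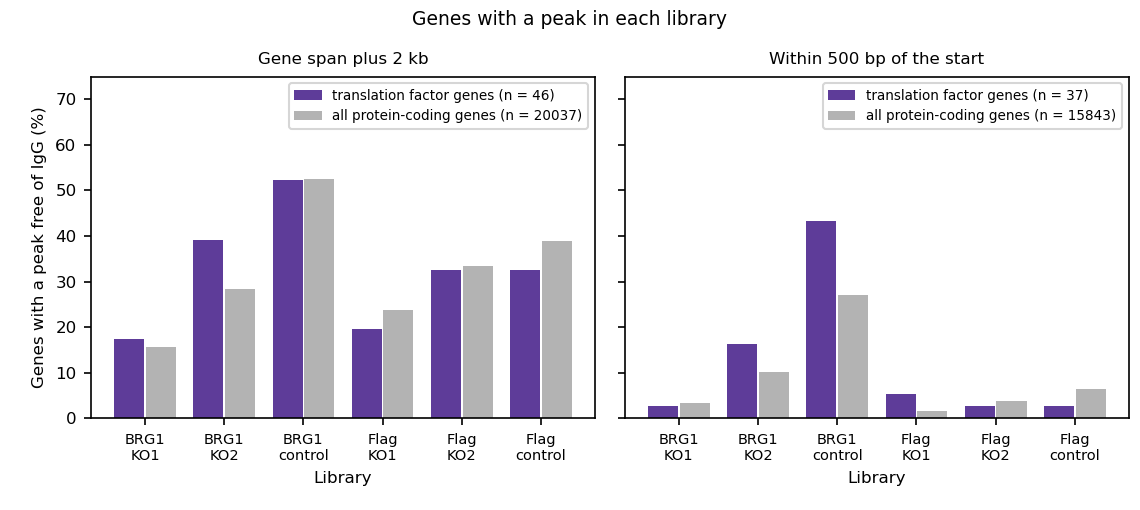
Percentage of the translation factor genes and of all protein-coding genes with a peak free of IgG in each antibody library, in the gene span plus 2 kb (left) and within 500 bp of the annotated start (right). In the wide window the translation factor genes stand at 52.2% and all genes at 52.4% in the BRG1 control, and at the start they stand at 43.2% and 27.0%.

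Flag-actin peaks lay mostly away from the starts. Within 500 bp of a start they were found at 2 of 37 genes in KO1 (EIF1 and EIF4G1), 1 in KO2 (EEF1G) and 1 in the control (EIF1), against 1.57%, 3.76% and 6.46% of all genes with a start. At 0 of 37 genes was there a control peak and no KO peak at the start, against 5.83%. The EIF1 peaks ran from 366 to 535 bp after the start in KO1 and from 106 to 255 bp after it in the control, just downstream of its BRG1 control peaks. EEF1G had a KO2 peak from 111 to 250 bp after its start at the 58.1 percentile, and 0 peaks in KO1 and in the control.

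In all 3 Flag-actin lists, EIF2B3, EIF4G1 and EIF4G3 had a peak free of IgG. EIF2B3 held 2 in KO1, 1 in KO2 and 1 in the control, at best percentiles of 31.2, 37.9 and 44.9. EIF4G1 held 1 in each, at the 11.6, 13.9 and 42.4 percentiles. EIF4G3 held 1, 1 and 2, at best percentiles of 6.31, 52.8 and 4.24. At none of the 3 genes did a KO peak overlap a control peak. Over all 46 genes the lists held 10 peaks in KO1, 16 in KO2 and 19 in the control, and the only overlap was at EIF3A, where a KO2 peak at the 49.3 percentile overlapped a control peak at the 25.0 percentile on chromosome 10 (119047961 to 119048250 in the control). In the windows of all genes 2.23% of control peaks overlapped a KO1 peak and 4.45% a KO2 peak. EIF3H had Flag-actin peaks in both KO lists and not in the control (1 in KO1, 2 in KO2, 0 in the control), at best percentiles of 24.4 in KO1 and 22.3 in KO2 and at places that did not overlap, against 3.51% of all genes with that pattern.

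By total signal, the highest-ranked Flag-actin control peaks free of IgG were at EIF5A (70.5 percentile), in the neighbouring gene GPS2, and at EIF3B (58.5 percentile), inside the gene. By maximum signal EIF3B, EIF4EBP1, EIF4G2 and EIF1 tied at the 53.2 percentile and EIF5A stood at 40.7. EIF3B held 0 peaks in KO1, 0 in KO2 and 2 in the control. EIF5A held 0, 1 and 1, and its KO2 peak lay inside the gene at the 11.1 percentile. PABPC1 held 0, 1 and 3 at best percentiles of 11.1 in KO2 and 47.8 in the control. EIF3G, which contacts the mRNA during scanning, held 0, 0 and 1, at the 52.1 percentile. No eIF2 gene and no eEF1 gene held a Flag-actin control peak, and among the eEF1 genes only EEF1G held one in a KO list.

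BRG1 and Flag-actin control peaks shared the window of 10 of the 46 genes (25.9% of all genes). The peaks themselves overlapped at PABPC1 and EIF4G2, which was 2 of 51 BRG1 control peaks (3.92%) and 2 of 19 Flag-actin control peaks, against 3.78% and 4.74% in the windows of all genes. At PABPC1 the overlapping peaks lay inside the gene, from 100719221 to 100719560 for Flag-actin and from 100719401 to 100719640 for BRG1. At EIF4G2 they lay at the upstream end of the gene, where the Flag-actin peak ran from 10809271 to 10809550.

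Part of the signal in these windows was shared with IgG. At 11 of the 46 genes an IgG list held a peak, and 8 had a peak in all 8 lists (EIF2B3, EIF3L, EIF4A1, EIF4EBP1, EIF4G3, EEF2, EEF2K and EIF6). These counts were not taken over all genes, so they mark no trait of the 46. IgG peaks lay in the windows of 9 genes (19.6%) in the BRG1 arm and 11 (23.9%) in the Flag arm, below the 33.2% and 31.4% of all genes. The EEF2 site lay inside the gene on chromosome 19, ranked between the 90.5 and 96.8 percentiles of every list, and was 30 to 130 bp wide. At EIF6, which keeps the large subunit from joining too early, the peak beside the start was 20 bp wide in BRG1 KO1, 100 bp in KO2 and 250 bp in the BRG1 control, against 70 and 20 bp in the IgG lists of the BRG1 and Flag arms. It was left out as overlapping IgG in every list, and whether the wider control peak holds BRG1 signal was not tested. The windows of 23 of the 46 genes reached into another protein-coding gene, and 3 of the 51 BRG1 control peaks lay in a second gene.

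Other genes of the pathway, in lists written for comparison, were counted the same way for BRG1 in KO1, KO2 and control. Other initiation factors had peaks free of IgG at 3, 3 and 10 of 17 genes, led in the control by EIF2AK3, the kinase of the unfolded protein response (81.4 percentile). Other elongation and termination factors had them at 0, 3 and 7 of 11, led by EEF1E1, a scaffold protein of the tRNA synthetase complex (70.3 percentile). Regulators of the cap and the poly(A) tail stood at 3, 8 and 11 of 14, led by LARP1, the TOP mRNA binding protein (74.9 percentile). The mTORC1 genes stood at 3, 7 and 9 of 10, led by RPTOR (92.2 percentile), and mitochondrial translation factors at 2, 4 and 6 of 10, led by MTIF2 (60.8 percentile). A control peak and no KO peak was found at 7, 4, 4, 2 and 3 genes of these 5 lists, in the order given. For Flag-actin the same lists stood at 3, 4 and 4 genes, 1, 1 and 6, 4, 6 and 5, 4, 6 and 6, and 0, 2 and 0. As a check of the cell type, 1 of 12 colon epithelial genes in KO1, 5 in KO2 and 9 in the control had a BRG1 peak, led by KRT8 (89.9 percentile). In the control, 4 of 6 neuronal, 2 of 6 liver, 1 of 5 immune and 1 of 5 fibroblast marker genes had one, so absence of a peak did not mark the genes of other cell types.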

How the data were processed

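CUT&RUN libraries of HCT-116 cells were analysed from 8 peak lists. SEACR and MACS2 are the peak callers named per the submitters' processing notes, on hg38, beside bedtools 2.30.0, deepTools, Trim Galore 0.4.5, SAMtools, FastQC 0.12.0 and BWA. Their roles and settings are not stated there. The lists have the 6-column SEACR layout. Their names carry the word stringent and a threshold of 0.01 for antibody lists and 0.005 for IgG lists. The authors deposited the total and maximum signal of each peak, and the sources used here do not give its scaling to depth, so read depth per library is unknown and signal was used to rank peaks within a list.

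Peaks of the autosomes and sex chromosomes were placed in gene windows by overlaps of at least 1 bp, with Python 3.11.15, numpy 2.4.6, pandas 2.3.3 and matplotlib 3.10.9. Gene positions, starts and promoter sequences came from RefSeq tables of GRCh38.p14, and starts were found for 37 of 46 genes. Starts were not used for EIF2S2, EIF3A, EIF3E, EIF3G, EIF3H, EIF3L, EIF4EBP1, PABPC1 and EEF1D. On simulated data of 42000 intervals, the overlap code and bedtools 2.31.1 differed in 0 cases.

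The genes and lists were chosen with earlier results of these data known. Values were given in full for genes found in KO1 and KO2, for the highest-ranked control gene of each complex, and for any gene with a control peak in the top 10% of its list and no KO peak, of which there were 0. Genes with peaks at the start, the motifs and the printed sequences were chosen after values were seen. No test compared KO with control. Alternatives changed the window, the IgG filter, the list length, the peak width and the KO libraries.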

Additional observations from a re-analysis of the deposited data

Results flagged for a closer look

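EIF3H differed in direction between the antibodies. Its BRG1 peaks free of IgG numbered 0 in KO1, 1 in KO2 and 2 in the control, a KO mean minus control of -1.5, and its Flag-actin peaks numbered 1 in KO1, 2 in KO2 and 0 in the control, a KO mean minus control of 1.5. Both KO lists held fewer peaks than the control for BRG1 and more for Flag-actin. Each BRG1 control peak had a total signal of 4997, below the lowest of the KO1 (6228) and KO2 (5182) lists. The Flag-actin control list began at 25771, against 4650 in KO1 and 5879 in KO2. Absence from a list therefore cannot show a change in signal here. The difference was not tested, and the peaks lay at different places in the gene.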

How the results depend on the processing

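The BRG1 difference of -11 genes between the KO mean and the control kept its sign in every alternative. It was -2 when control peaks below the lowest total signal of both KO lists were left out, where 5 genes, and 1 each of eIF2B, eIF3 and eIF4, had a control peak and no KO peak. This alternative, the windows within 500 bp of a start and the ranks among peaks free of IgG were added after the data were seen. The Flag-actin difference of -3 turned to 1 with equal-length lists and 0.5 at the starts, and was -8.5 with 5 kb either side. The cause was not tested.

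The counts of genes with a control peak and no KO peak were, with all peaks counted, 1 for eIF2B, 1 for eIF4 and 3 for Flag-actin. With no flank they were 1 for eIF2B, 1 for eIF3, 5 for eIF4 and 1 for eEF1. At gene ends they were 5 for eIF3 and 1 for eEF1. In the upper 50% of each list 0 of the 46 genes had a BRG1 peak in KO1 and 0 in KO2. The counts are thus those of the control alone: 16 of the 46 genes, with 1 for eIF2B, 6 for eIF4 and 2 for eEF1. Overlaps and genes with KO peaks only numbered 0, by construction. For Flag-actin the count was 3, with 0 genes in KO1. With equal-length lists they were 1 for eIF2B, 1 for eIF3 and 2 for eEF1, with peaks of at least 100 bp 5 for eIF3, and at the starts 1 for eEF1 and 0 for Flag-actin.

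Genes with peaks in both KO lists only numbered 0 for BRG1 at gene ends, with equal-length lists, with peaks of at least 100 bp and at the starts, and 0 for Flag-actin with 5 kb flanks, at gene ends, in the upper 50%, with peaks of at least 100 bp and at the starts. BRG1 control peaks that overlapped a KO peak numbered 11, and 24 with all peaks, 7 at gene ends, 4 with equal-length lists and 4 at the starts. For Flag-actin the number was 1, and 11 with all peaks, 2 under the same-arm IgG list alone, and 0 at gene ends, in the upper 50%, with equal-length lists and at the starts.

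Leaving out KO1 or KO2 gave BRG1 differences of -16 to -6 and Flag-actin differences of -6 to 0. Genes with a control peak and no KO peak ranged from 13 to 19 for BRG1 and from 7 to 11 for Flag-actin, and within BRG1 from 4 to 5 for eIF3, 4 to 4 for eIF4 and 0 to 2 for eEF1. Genes with KO peaks only ranged from 3 to 7 and from 5 to 7, and overlapped control peaks from 3 to 10 and from 0 to 1. Of single genes, the Flag-actin difference at EIF4G3 (-1) turned to 0.5 with all peaks, under the same-arm IgG list alone and in the upper 50%, and to 1 with equal-length lists. That at EIF5A (-0.5) turned to 0.5 with no flank, and that at EIF2B3 (0.5) to -1 at gene ends. Ranked by maximum signal, the best BRG1 control peak of PABPC1 stood at the 58.7 percentile and that of EEF1G at 48.4, and among peaks free of IgG at 97.6 and 94.9. No paired analysis was possible because each antibody had 1 control library, with no test to which a block could be added. List thresholds and unknown depth limit what absence of a peak can show.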
